A study of Mus musculus with 34 samples.

Results

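Cytosolic ribosomal protein genes were followed in mRNA that was pulled down with tagged ribosomes from inhibitory interneurons of mice. Members were taken by symbol: names that begin with Rpl or Rps followed by a number, with at most a short suffix, and Rplp0, Rplp1, Rplp2 and Rpsa. Names with -ps, which mark pseudogenes, were dropped, and a gene was kept where at least 2 libraries of a table held at least 1 CPM (counts scaled to a common library total). Of 54540 genes named in the tables, 89 had a matching name and 82 were kept, 49 of them proteins of the large subunit and 33 of the small subunit. The 82 are not the members of any single table: 81, 80, 81, 80 and 80 were kept in batches 1 to 5, and 79 in all of them.

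The cytosolic ribosome joins a small subunit, which reads the mRNA, to a large subunit, which links amino acids. Each subunit holds its proteins in fixed numbers on a scaffold of ribosomal RNA, so their synthesis is matched. Ribosomal protein mRNAs are short and abundant, and most start with a C followed by a run of pyrimidines, the 5′ terminal oligopyrimidine (TOP) tract, through which the mTORC1 kinase sets how well they are translated. In neurons the mRNAs of many ribosomal proteins are also found in dendrites and axons. Rpl22, a protein of the large subunit, carries the HA epitope in the RiboTag method, so the pull-down itself works through one of the members.

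The study compared parvalbumin (PV) and somatostatin (SST) interneurons after seizure-inducing drug treatment, after learning and without the transcription factor Nr4a1. All mice carried the Cre-dependent Ribotag allele of Rpl22, were on a C57/BL6 background and were taken at postnatal day 60. The labels name cortex and hippocampus as the tissue, whereas the extraction protocol speaks of cortices. Cre acts in the cells that express Pvalb or Sst, and no library of RNA from before the pull-down is among the 34, which form 11 groups.

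PV:Cre/Ribotag mice gave the PV saline (n = 3) and PV pentylenetetrazol, PTZ (n = 4), libraries of batch 1, and the PV saline libraries (n = 2) of batch 2. They also gave the PV home cage (n = 3) and PV contextual fear conditioning, CFC (n = 3), libraries of batch 3. Sst:Cre/Ribotag mice gave the SST saline (n = 4) and SST PTZ (n = 3) libraries of batch 2 and the SST home cage (n = 3) and SST CFC (n = 3) libraries of batch 4. PV:Cre/Nr4a1-f/f/Ribotag mice from the home cage (n = 3, batch 3) and Sst:Cre/Nr4a1-f/f/Ribotag mice from the home cage (n = 3, batch 5) are called the libraries labelled Nr4a1 cKO. PTZ blocks GABA receptors and excites neurons broadly, while CFC teaches an animal to link a place to a shock. Whether replicates are different animals is not stated in the labels. The p-values therefore reflect only how far these libraries scatter, which may be technical.

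The start of a gene's mRNA is shown first, because the TOP tract is read there. The RefSeq table of GRCm38.p6 held an annotated start for 61 of the 82 members. A C at the start base with at least 4 further pyrimidines (C or T) followed in 13 of them (21.3%), against 813 of 27025 genes in the table (3.01%), read on the strand of the gene. The first 5 sequences below hold the tract and include 3 of the 4 members with the lowest values after CFC in PV libraries (Rps21, Rplp2 and Rpl38). They are a chosen few: Rps6, with a smaller fall there, also holds the tract and is not shown. Rps21 and Rpl22 each have a further annotated start without the tract (chr2:180257434-180257463 and chr4:152324421-152324450). Rpl22, its paralog Rpl22l1 and Rpl7l1 do not hold it at their annotated start and are shown for contrast. Each has 15 bases before the start and 15 from the start on, 5′ to 3′, with the tract in capitals, or the start base alone where there is no tract.
Rps21 (chr2:180257364-180257393, plus strand): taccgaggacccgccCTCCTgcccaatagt
Rpl38 (chr11:114668565-114668594, plus strand): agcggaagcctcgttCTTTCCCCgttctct
Rplp2 (chr7:141447636-141447665, plus strand): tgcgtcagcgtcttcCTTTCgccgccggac
Rps27 (chr3:90213634-90213663, minus strand): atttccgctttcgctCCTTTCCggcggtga
Rps15a (chr7:118116133-118116162, minus strand): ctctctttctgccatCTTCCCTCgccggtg
Rpl22 (chr4:152325711-152325740, plus strand): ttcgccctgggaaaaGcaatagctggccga
Rpl22l1 (chr3:28805493-28805522, plus strand): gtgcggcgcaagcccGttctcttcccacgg
Rpl7l1 (chr17:46782642-46782671, minus strand): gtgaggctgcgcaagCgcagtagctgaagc
An annotated start can lie some bases from the start the cell uses, so a missing tract says only that these letters are not at the annotated base.

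Kept members together held a small and uneven share of each library's counts. The share was 0.331% ± 0.0594 (SD, n = 3) in PV saline and 0.363% ± 0.114 (n = 4) in PV PTZ libraries of batch 1. In batch 2 it was 0.574% ± 0.0797 (n = 2) in PV saline, 0.257% ± 0.0397 (n = 4) in SST saline and 0.213% ± 0.00497 (n = 3) in SST PTZ libraries. The PV saline pair of batch 2 stood above all SST libraries of that batch, and it was also shallower, with totals of 6161764 and 4933110 counts against 13763931 to 18413104.

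In batch 3 the share was 1.17% ± 0.340 in PV home cage, 0.818% ± 0.0413 in PV CFC and 0.910% ± 0.141 in PV libraries labelled Nr4a1 cKO (n = 3 each). The PV home cage libraries spread most: replicate 1 held 0.862% (95% exact binomial interval 0.858 to 0.866), replicate 2 held 1.12% (1.12 to 1.13) and replicate 3 held 1.54% (1.53 to 1.54). These intervals, which cover counting error only, are far narrower than the distance between the 3 libraries. Replicate 3 had 10096035 counts, the fewest of batch 3, where the others had 15301328 to 27282912. The share was 0.689% ± 0.0509 in SST home cage and 0.754% ± 0.0542 in SST CFC libraries of batch 4, and 0.436% ± 0.0284 in the SST libraries labelled Nr4a1 cKO of batch 5 (n = 3 each).

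**Figure D1:**
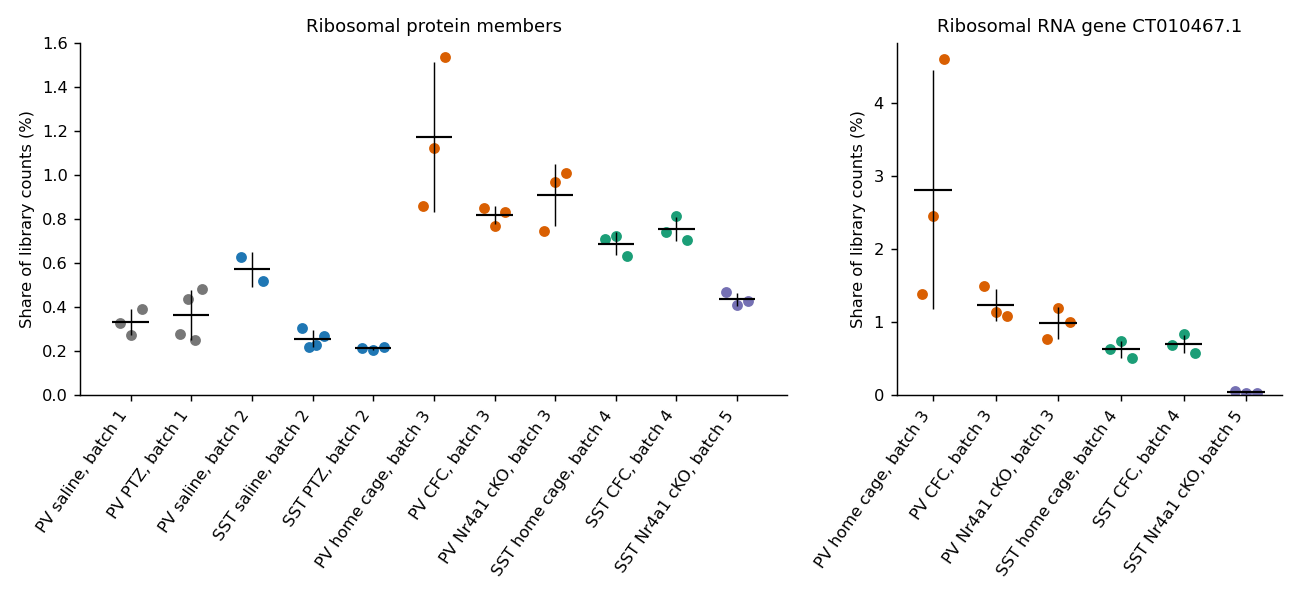
Left, counts of the kept ribosomal protein members as a share of all counts (%, y axis) for each library, by group and batch (x axis); right, the share of the ribosomal RNA gene CT010467.1 in batches 3 to 5. Points are libraries coloured by batch, horizontal bars are group means and vertical bars are SD; PV home cage libraries run from 0.862% to 1.54% on the left and from 1.39% to 4.6% on the right, and the batch 5 libraries are lowest of batches 3 to 5 in both.

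The ribosomal RNA gene CT010467.1 was also highest in the PV home cage and lowest in batch 5. It held 1.39%, 2.45% and 4.6% of counts in PV home cage replicates 1, 2 and 3, in the order of their member shares, 1.09% to 1.49% in PV CFC libraries and 0.771% to 1.2% in PV libraries labelled Nr4a1 cKO. It held 0.502% to 0.833% in the libraries of batch 4 and 0.0337% to 0.0526% in batch 5. The order did not match everywhere, since the PV libraries labelled Nr4a1 cKO had a higher mean member share than PV CFC libraries but a lower range of this gene. The part of this in the member values was not tested. In such bulk libraries, fewer cells of a type and less RNA per cell cannot be told apart.

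The labels were checked with other genes. Sst was at 2569.7 ± 675 CPM in SST saline and at 61.2 ± 9.71 CPM in PV saline libraries of batch 2, and Pvalb at 7.85 ± 2.79 and 302.5 ± 84.0 CPM. In PV saline libraries of batch 1, Pvalb was at only 20.0 ± 3.53 CPM, below Sst at 48.5 ± 12.5 CPM, so the marker that names these cells is low there. Nr4a1 was at 10.3 ± 5.39 CPM in PV libraries labelled Nr4a1 cKO and at 8.06 ± 3.35 CPM in PV home cage libraries (log2 fold change 0.38 ± 0.35 SE, adjusted p = 0.592 by edgeR). In SST it was at 14.3 ± 3.14 and 17.7 ± 5.4 CPM (-0.30 ± 0.22, adjusted p = 0.511), so neither group labelled cKO was lower than home cage by this test. These counts are summed over the whole gene, so they cannot show whether a part of Nr4a1 was deleted.

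**Figure D2:**
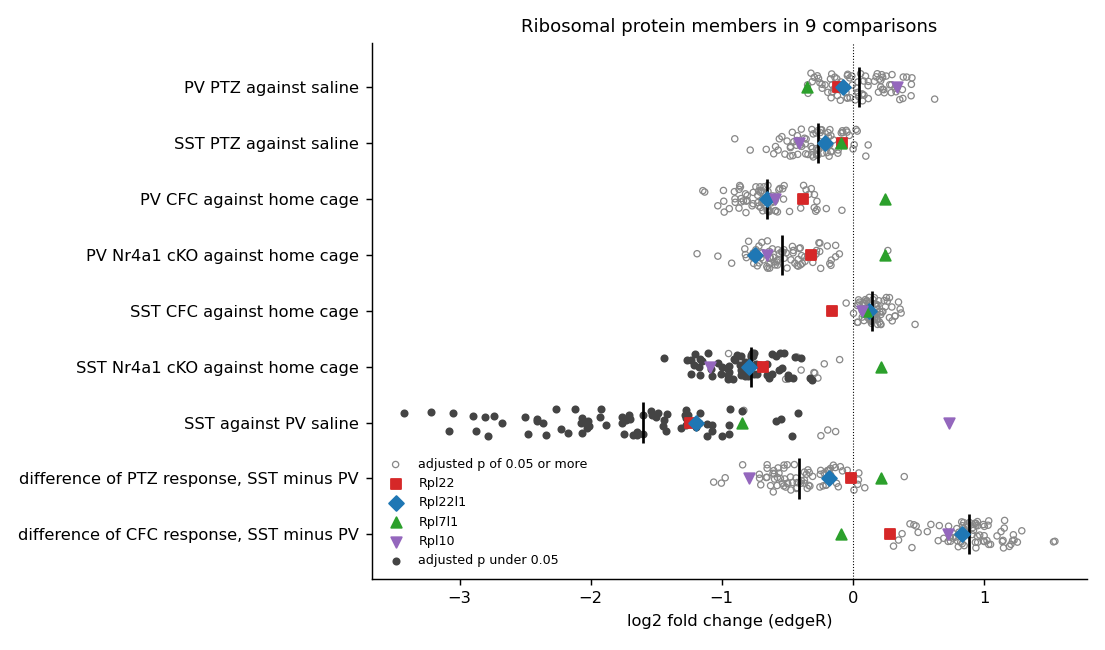
Log2 fold changes by edgeR (x axis) of the tested members in 9 comparisons (rows), with a black line at each median and filled points where the adjusted p was under 0.05; Rpl22, Rpl22l1, Rpl7l1 and Rpl10 have their own symbols, which do not show the call. Medians run from -1.60 (SST against PV saline) to 0.15 (SST CFC) among the comparisons of 2 groups, and members passed the test in the SST Nr4a1 cKO and SST against PV saline rows.

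In PV libraries, CFC went with lower values of nearly all members, although none passed the test. Rps21, a small subunit protein, was at 86.6, 73.7 and 87.6 CPM in the CFC libraries 1 to 3 and at 94.8, 135 and 320 CPM in the home cage libraries. Rps29, a zinc-binding protein of the small subunit, was at 75.6, 71.3 and 79.1 CPM after CFC and at 81.5, 140 and 274 CPM in the home cage. In both genes all CFC libraries lay below all home cage libraries, and home cage replicate 3 was far above the other two. The log2 fold changes were -1.14 ± 0.35 (SE) for Rps21 and -1.13 ± 0.34 for Rps29 (both adjusted p = 0.186, edgeR).

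Among large subunit proteins, Rplp2 and Rpl38 had the lowest values. Rplp2, an acidic protein of the stalk that recruits translation factors, was at 158, 130 and 141 CPM after CFC and at 160, 257 and 462 CPM in the home cage (-1.03 ± 0.31, adjusted p = 0.186). Rpl38 was at 84.0, 75.6 and 86.6 CPM against 96.8, 141 and 251 CPM (-0.99 ± 0.29, adjusted p = 0.186). Rpl37 followed with a log2 fold change of -0.98 ± 0.33, but its groups overlapped. At the other end, Rpl4 stood at 428, 392 and 387 CPM after CFC and at 377, 435 and 467 CPM in the home cage, with overlap and a log2 fold change of -0.08 ± 0.13.

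Rpl7l1 was the only member with a positive value. It is a paralog of Rpl7 that acts in the making of the large subunit, and it was at 77.7, 75.5 and 73.5 CPM after CFC and at 64.0, 60.1 and 67.3 CPM in the home cage. Its groups did not overlap, with a log2 fold change of 0.24 ± 0.12 (adjusted p = 0.311), whereas Rpl7 itself was at 155, 137 and 154 against 166, 222 and 272 CPM (-0.56 ± 0.19, adjusted p = 0.186). Rplp0, the stalk's base, had -0.29 ± 0.16, Rps6, the small subunit protein phosphorylated downstream of mTORC1, had -0.27 ± 0.13, and Rpsa, also known as the laminin receptor, had -0.27 ± 0.14.

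Over all 81 tested members, 80 were negative in PV CFC libraries, with a median log2 fold change of -0.655 (large subunit -0.65, small subunit -0.70), beside 0.02 over all 15150 genes tested. edgeR called 0 members and 0 genes at all (0.0%). Without overlap between groups, 28 members (34.6%) were lower, where 11.4% of all genes were. At an unadjusted p under 0.05, edgeR had 65 of the 81 members (80.2%) against 18.7% of all genes; DESeq2 called 49 members lower (60.5%) against 4.92% of genes, and limma voom called 0 members and 0.0066% of genes. The result changed with the home cage library left out. Without home cage replicate 1 edgeR called 66 members lower with a median of -0.89, and without replicate 3 it called 0 with a median of -0.362. The share of all genes called in these refits is not given here, so the 66 cannot be read as particular to the members.

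**Figure D3:**
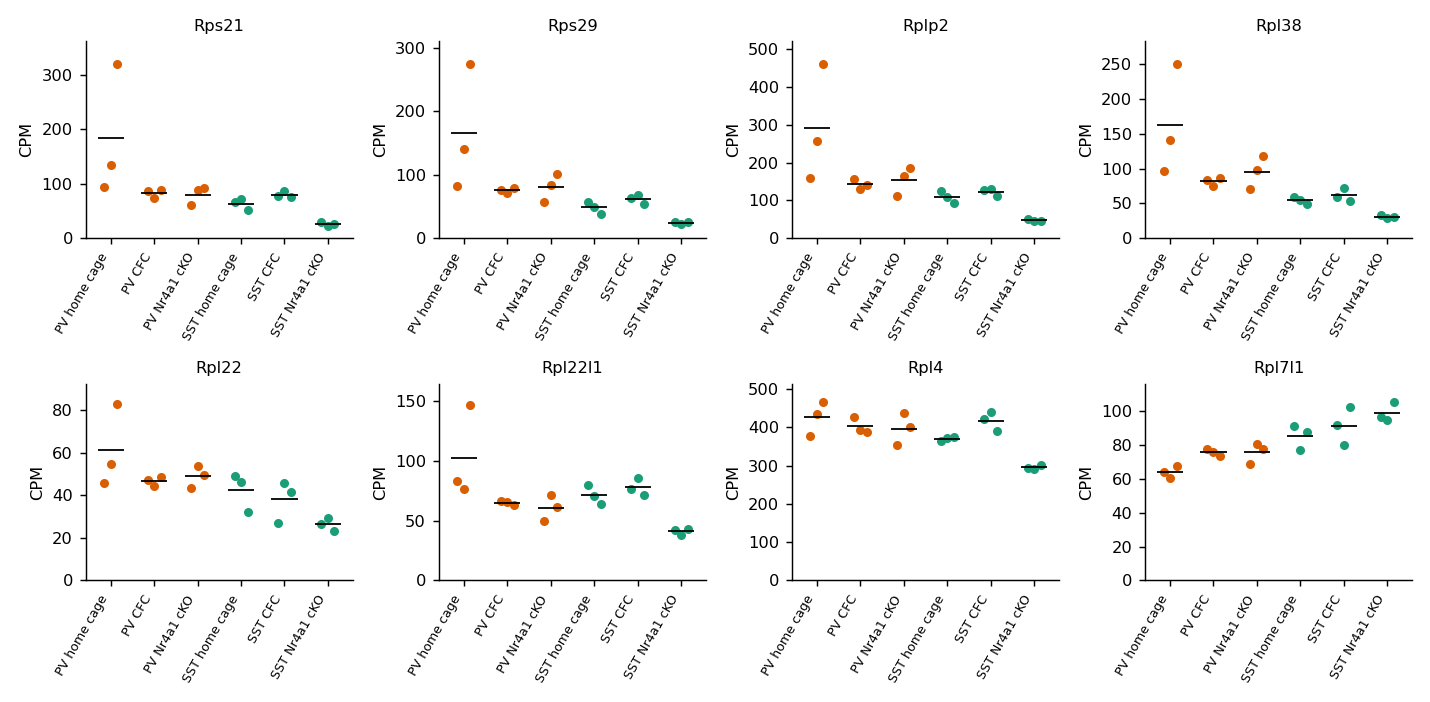
CPM after TMM scaling (y axes start at 0) of 8 members in each library of batches 3 to 5, by group (x axis); points are libraries, bars are group means, orange marks PV and green SST libraries. PV libraries (batch 3) and SST libraries (batches 4 and 5) were scaled separately; Rps21 reaches 320 CPM in PV home cage replicate 3, and Rpl7l1 shows no such high library.

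PV libraries labelled Nr4a1 cKO share their 3 home cage controls with the CFC comparison, so both rest on the same controls. Rps21 was at 60.4, 88.3 and 91.9 CPM, below the 94.8 CPM of the lowest home cage library (-1.19 ± 0.35, adjusted p = 0.156). Rpl22l1 was at 50.1, 71.5 and 61.3 CPM against 83.0, 77 and 147 CPM (-0.75 ± 0.23, adjusted p = 0.162), also without overlap. Rps29 (-1.03 ± 0.34), Rplp2 (-0.92 ± 0.31), Rplp1 (-0.82 ± 0.26), the partner of Rplp2 in the stalk, and Rpl29 (-0.82 ± 0.47) were the other low members, all with overlap. Rpl30 was the highest member at 0.27 ± 0.31, again with overlap, followed by Rpl7l1 at 0.24 ± 0.12, whose groups did not overlap.

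Of the 81 members, 79 were negative, with a median of -0.54 beside 0.04 over all genes. edgeR called 0 of them where it called 0.139% of genes. Only 4 members (4.94%) were lower without overlap, against 9.02% of all genes, a share under the background. An unadjusted p under 0.05 was reached by 44 members (54.3%) against 17.8% of genes. DESeq2 called 6 members (7.41%) against 4.42% of genes, and limma voom 0 against 0.145%. Without home cage replicate 1 edgeR called 43 members lower, and without replicate 3 the median was -0.215 with 0 called. Those counts are given without the share of all genes called in the same refits. Summed oligodendrocyte markers were higher in these libraries, at 420 to 995 against 224 to 408 CPM (12 of 12 positive, 0 called), and their part was not tested.

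SST libraries after CFC gave small positive values. Rpl30, a large subunit protein, was at 20.0, 22.9 and 20.4 CPM after CFC and at 16.3, 16.4 and 13.0 CPM in the home cage (0.47 ± 0.20, adjusted p = 0.892). Rpl39, the member with one of the shortest coding sequences, was at 38.2, 41.0 and 31.1 CPM against 30.4, 29.1 and 26.4 CPM (0.36 ± 0.17, adjusted p = 0.909). Both had groups that did not overlap, and Rps21 was likewise higher without overlap at 76.1, 84.3 and 74.2 against 65.1, 71.6 and 51.0 CPM (0.32 ± 0.14). Rps29 (0.35 ± 0.17) and Rps28 (0.32 ± 0.19) overlapped between groups.

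Rpl22, the tag carrier, had the lowest value of all members in SST CFC libraries, at 26.8, 45.0 and 41.4 CPM against 48.5, 46.1 and 31.9 CPM (-0.16 ± 0.24), with overlap. Rps27l (-0.05 ± 0.21) was the only other negative member, and Rpl13, Rpl10a and Rps18 were next with 0.01, 0.03 and 0.03. In all, 78 of 80 members were positive, with a median of 0.15 beside a median of -0.004 over all genes. The median was 0.0807 without SST home cage replicate 3 and 0.095 without SST CFC replicate 2.

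The test called 0 members in SST CFC libraries, against 0.0411% of genes by edgeR. Groups did not overlap for 14 higher members (17.5%), against 4.8% of genes. An unadjusted p under 0.05 was reached by 3 members (3.75%) where 5.57% of genes reached it; DESeq2 called 0 (0.698% of genes) and limma voom 0 (0.0342%). Markers of vascular and mural cells were low in the same CFC libraries: summed over the 14 markers tested, they were at 57.5 to 92.2 CPM after CFC and 141 to 709 CPM in the home cage. Their part in the member values was not tested.

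The difference between the CFC responses, SST minus PV, was positive in 79 of 80 members with a median of 0.89 log2 units. Rps29 (1.54 ± 0.44), Rps21 (1.53 ± 0.44), Rps28 (1.29 ± 0.40), Rplp2 (1.26 ± 0.39) and Rpl39 (1.23 ± 0.36) differed most, each with an adjusted p of 0.21 by edgeR. Rpl7l1 (-0.09 ± 0.17), Rpl22 (0.28 ± 0.32), Rpl4 (0.31 ± 0.15), Rps4l (0.35 ± 0.21) and Rpsa (0.38 ± 0.21) differed least. edgeR called 0 members and 0.0% of genes; an unadjusted p under 0.05 was reached by 73 members (91.2%) against 15.2% of genes. DESeq2 called 34 members (42.5%) against 2.03% of genes, and limma voom 0 members and 0.0% of genes. Without PV home cage replicate 1 edgeR called 66 members higher, given here without the share of all genes called. Without replicate 3 the median was 0.582. The PV and SST responses come from separate batches, so cell type and batch cannot be told apart in this difference.

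In SST libraries labelled Nr4a1 cKO, ribosomal protein mRNAs fell against the SST home cage libraries by amounts that were larger than the spread between libraries. Rpl29, a large subunit protein, was at 17.1, 18.9 and 21.9 CPM against 51.3, 55.3 and 50.5 CPM in the home cage (-1.44 ± 0.12, adjusted p = 0.000329). Rps20, of the small subunit, was at 29.7, 28.8 and 29.7 CPM against 72.7, 71.3 and 63.7 CPM (-1.24 ± 0.11, adjusted p = 0.000387). Rps21 was at 29.1, 23.3 and 26.2 against 66.2, 71.7 and 51.5 CPM (-1.27 ± 0.14, adjusted p = 0.000927). The groups were far apart in each, with the highest library labelled cKO below the lowest home cage library.

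Rps28 (-1.23 ± 0.19, adjusted p = 0.00376) and Rplp2 (-1.21 ± 0.12, adjusted p = 0.000469) completed the 5 lowest members. Smaller falls were seen in Rpl10, which sits near the peptidyl transferase centre (-1.09 ± 0.10, adjusted p = 0.000387), Rpsa (-0.73 ± 0.13, 0.00672), Rplp0 (-0.54 ± 0.09, 0.00644), Rpl3 (-0.50 ± 0.09, 0.00761) and Rps6 (-0.31 ± 0.08, 0.0445). Rpl22l1 was at 42.0, 38.4 and 43.4 against 79.6, 70.5 and 64.1 CPM (-0.79 ± 0.11, adjusted p = 0.00308). Rpl22 was at 26.5, 29.5 and 23.4 against 49.3, 46.2 and 32.2 CPM (-0.68 ± 0.22); its groups did not overlap, but the adjusted p was 0.0899.

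Altogether 69 of 80 members were called lower (86.2%), 38 of 47 of the large and 31 of 33 of the small subunit, where 4.59% of all genes were; no member was called higher. Without overlap, 78 members (97.5%) were lower, where 14.9% of genes were. The median was -0.78 beside 0.02 over all genes. The 11 members not called were Rpl23a, Rpl22, Rpl35a, Rps27l, Rpl13a, Rps15a, Rpl30, Rpl23, Rpl15, Rpl5 and Rpl7l1, from -0.95 (Rpl23a, adjusted p = 0.0527) to 0.21 (Rpl7l1, adjusted p = 0.30). Rpl7l1 was again the only positive member, at 96.6, 94.7 and 105 against 91.2, 76.8 and 87.5 CPM.

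All libraries labelled cKO were in batch 5 and all SST home cage libraries in batch 4, so genotype and batch cannot be told apart in these falls. The ribosomal RNA share given above differed between the same libraries in the same direction, and Sst itself was lower there (-0.89 ± 0.07, adjusted p = 0.000307). Summed microglia markers were at 46.6 to 58.5 CPM in the libraries labelled cKO and 78.0 to 108 CPM in the home cage, and 2 of the 11 tested were called lower. Summed astrocyte markers were at 491 to 522 against 651 to 872 CPM, with 1 of 12 called lower. Summed oligodendrocyte markers were at 725 to 795 against 1078 to 1519 CPM (4 of 12 lower) and summed excitatory neuron markers at 406 to 439 against 766 to 942 CPM (3 of 12 lower). Of all genes, 4.59% were called lower in this comparison. The part of these markers in the falls was not tested.

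Within batch 2, the SST saline libraries differed from the 2 PV saline libraries in most members. Rpl38 was at 6.95, 4.16, 4.22 and 5.80 CPM in SST saline and at 51.1 and 62.9 CPM in PV saline libraries (-3.42 ± 0.25, adjusted p = 8.78e-07). Rplp1 was at 7.08, 3.66, 3.77 and 6.23 against 63.5 and 33.1 CPM (-3.22 ± 0.31, adjusted p = 6.52e-06). Rps27a, which is made as a fusion with ubiquitin, was at 9.80, 6.83, 5.85 and 8.62 against 63.2 and 46.0 CPM (-2.81 ± 0.23, adjusted p = 1.87e-06). In all 3 genes each SST library lay below both PV libraries, although the PV pair was far apart for Rplp1.

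Rpl35 (-2.74 ± 0.30, adjusted p = 1.93e-05) and Rpl27 (-2.50 ± 0.24, adjusted p = 5.81e-06) were also among the 5 lowest members with a mean of at least 10 CPM. That mean is over all batch 2 libraries, and these 5 passed it only through the PV pair. Their SST saline means were 5.28 (Rpl38), 5.19 (Rplp1), 7.77 (Rps27a), 6.95 (Rpl35) and 9.75 CPM (Rpl27). Smaller falls were found in other core proteins, and Rps6 was at 104, 92.3, 97.1 and 98.8 against 180 and 197 CPM (-0.94 ± 0.11, adjusted p = 3.43e-05). Rpsa had -1.31 ± 0.12 (adjusted p = 5.01e-06) and Rplp0 -1.50 ± 0.46 (adjusted p = 0.0169). Rpl4 had the smallest called fall of the members at or above 10 CPM, at 304, 272, 291 and 318 against 339 and 454 CPM (-0.42 ± 0.13, adjusted p = 0.0143).

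Rpl10 went the other way. It was at 119, 88.8, 107 and 115 CPM in SST saline and at 63.8 and 65.2 CPM in PV saline libraries (0.74 ± 0.15, adjusted p = 0.00173), and it was the only member called higher. Its gene lies at chrX:74270812-74273135 on the plus strand of GRCm38, and an exon overlaps the small nucleolar RNA gene Snora70 on the same strand. Members that were lower here have such overlaps too, for example Rpl23a (Snord42b, -2.12) and Rplp2 (Snora52, -2.48). The part of such overlaps was not tested. Rpl10a (-0.13 ± 0.19), Rps15a (-0.19 ± 0.15), Rpl15 (-0.24 ± 0.13), Rpl26 (-0.83, adjusted p = 0.154) and Rpl7l1 (-0.85 ± 0.48) were not called.

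In total 74 of 80 members were called lower in SST (92.5%), where 27.1% of all genes were, and 1 was called higher (1.25%), where 26.0% were. Without overlap 72 (90%) were lower, against 28.5% of genes. The median was -1.60 (large subunit -1.57, small subunit -1.66) beside 0.015 over all genes. The PV group has 2 libraries of lower depth than the rest; leaving out PV saline replicate 1 gave a median of -1.29, and leaving out any library of the compared groups left 69 to 75 members called. The part of depth in these values was not tested. In batch 1, which has its own table, the 3 PV saline libraries held member shares of 0.273% to 0.392%. That range overlaps the 0.220% to 0.306% of SST saline and lies below the 0.518% to 0.630% of the PV pair. Shares were not tested between tables. Whether the falls hold against PV libraries other than this pair was therefore not tested.

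PTZ gave no called member in either cell type. In PV libraries 46 of 81 members were positive and the median was 0.04, close to that of all genes (-0.01). Rpl36a had the highest value at 7.47, 10.2, 10.2 and 23.4 CPM after PTZ and 6.52, 8.23 and 10.0 CPM after saline (0.62 ± 0.39), where PTZ replicate 4 stood apart and the groups overlapped. Among members of at least 10 CPM, Rpl23a (0.41 ± 0.44), Rpl23, Rpl13 and Rps24 were next, and Rps15a (-0.34 ± 0.18), Rps13, Rps16 and Rpl28 were among the lowest of the members with at least 10 CPM. The paralog Rpl7l1, at 4.06 ± 1.22 against 5.15 ± 1.51 CPM, had the lowest value of all (-0.35 ± 0.35).

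Of the 81 members 0 were called by edgeR (0.0294% of genes), DESeq2 (1.58%) and limma voom (0.0294%) after PTZ in PV libraries. None reached an unadjusted p under 0.05, which 13.8% of genes did, and 0 members had groups that did not overlap, which 13.8% of genes had. The median changed sign between settings and stayed within -0.14 to 0.22 when single libraries were left out. Fos rose in the same libraries (3.91 ± 0.51, adjusted p = 0.0395). Summed microglia markers were at 70.8 to 557 CPM after PTZ and 52.6 to 158 CPM after saline, with 12 of 12 positive and 0 called, and their part was not tested.

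In SST libraries 74 of 80 members had lower values after PTZ, with a median of -0.27 beside -0.015 over all genes. Without SST saline replicate 1 the median was -0.151. Rpsa had the smallest p of all members, at 58.8, 54.7 and 55 CPM after PTZ and 83.2, 67.2, 79.1 and 77.2 CPM after saline (-0.45 ± 0.11, unadjusted p = 0.00169, adjusted p = 0.536). Rpl10 was at 71.7, 88.8 and 81.5 against 119, 88.8, 107 and 115 CPM (-0.41 ± 0.13). Rplp1 was at 2.99, 2.95 and 3.13 against 7.08, 3.66, 3.77 and 6.23 CPM (-0.78 ± 0.30, adjusted p = 0.989). In each of the 3 the groups did not overlap, in Rpl10 only just.

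Of members with a mean of at least 10 CPM over all batch 2 libraries, PV included, Rpl31 (0.03 ± 0.16) and Rpl5 (0.02 ± 0.11) had the highest values after PTZ in SST libraries. Rpl23 (0.00 ± 0.16), Rps24 (-0.03 ± 0.18) and Rpl26 (-0.04 ± 0.41) were next. Rpl26 was at 8.84 CPM in the SST PTZ and 9.09 CPM in the SST saline libraries. Lower values without overlap were found in 12 members (15%) against 5.84% of genes, and an unadjusted p under 0.05 in 12 (15%) against 4.34%. edgeR called 0 (0.144% of genes), limma voom 0 (0.229%) and DESeq2 1 member, lower (1.25%, against 0.322% of genes).

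The difference between the PTZ responses, SST minus PV, was negative in 73 of 80 members with a median of -0.41, which ran from -0.579 without PV saline replicate 4 to -0.18 without PV PTZ replicate 4. It was -0.251 without SST saline replicate 1. Rpl10 had the smallest p, with a difference of -0.79 ± 0.28 log2 units (unadjusted p = 0.0104, adjusted p = 0.82), and it was the only member with an unadjusted p under 0.05 (1.25%, against 5.13% of genes). edgeR and limma voom called 0 members and 0.0% of genes each, and DESeq2 0 members and 0.00852% of genes. The responses come from batches 1 and 2, so cell type and batch cannot be told apart here either.

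Within the members, size of the fold change went with length. Coding lengths, taken from the longest coding transcript of each gene in GENCODE M21, ran from 138 to 1257 bases with a median of 468. Over the 78 members of at least 10 CPM with a coding length, the Spearman correlation across genes between coding length and log2 fold change was 0.75 for PV CFC and 0.61 for PV Nr4a1 cKO, which share home cage libraries. It was 0.43 for SST Nr4a1 cKO (77 members) and 0.43 for SST against PV saline (63 members). In the latter the limit was on the mean over all batch 2 libraries, so short members such as Rpl38 and Rplp1 passed it only through PV libraries. The correlation was -0.27 for SST CFC, -0.17 for PV PTZ and 0.03 for SST PTZ. Members are not independent replicates, since they come from the same libraries and their reads are counted against each other's total.

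Members with a coding length under 400 bases had a median of -0.85 after CFC in PV libraries (26 members), against -0.64 for the 52 longer ones. The medians were -0.93 and -0.76 for SST Nr4a1 cKO (26 and 51 members), and -2.12 and -1.49 for SST against PV saline (12 and 51 members). The shortest members, Rpl41 (138 bases) and Rpl39 (153), had -0.81 each in PV CFC, at ranks 20 and 21 from the lowest. Rps29 (168 bases), Rpl38 (210) and Rps21 (249) are also at the short end and were among the 4 lowest members there. Rpl4 (1257 bases) had the value nearest to 0 in PV CFC. In SST Nr4a1 cKO only Rps21 of these was among the lowest, and Rpl38 (-0.82) was close to the members' median. Members that hold the TOP tract at their annotated start had a median of -0.74 after CFC in PV libraries and -0.94 in SST Nr4a1 cKO, against -0.65 and -0.75 for those without; in SST against PV saline it was -1.27 against -1.49, the other way round (13 members with the tract in each).

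**Figure D4:**
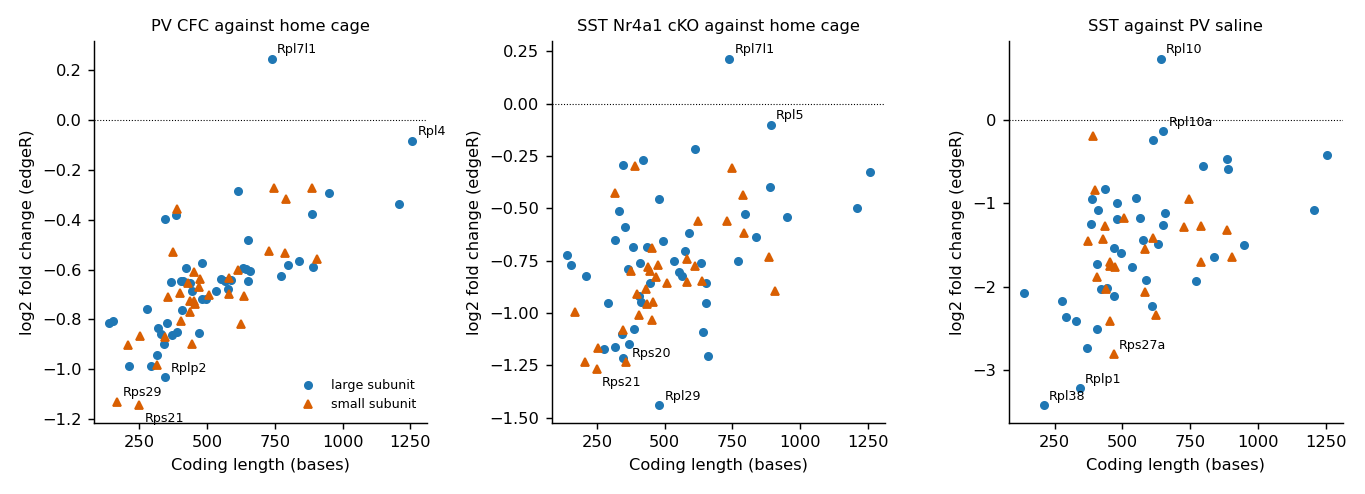
Log2 fold change by edgeR (y axis) against coding length in bases (x axis) for members with a mean of at least 10 CPM in 3 comparisons; blue circles are large subunit and orange triangles small subunit proteins. Short members lie lower, with Spearman correlations across genes of 0.75, 0.43 and 0.43 from left to right; Rpl7l1 stands apart above the rest in the left and middle panels, and Rpl10 in the right panel.

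Other short genes had lower values in the same comparisons. With length taken as the sum of a gene's exons, genes outside the list with under 1000 bases had a median of -0.63 in PV CFC libraries, those of 1000 to 2000 bases -0.35, those of 2000 to 4000 bases -0.02 and those over 4000 bases 0.17. The members' medians in the same classes were -0.88, -0.66, -0.62 and -0.67, so each was below that of the other genes of its class. For SST Nr4a1 cKO the other genes ran from -0.57 to 0.10 and the members from -0.93 to -0.70, and for SST against PV saline from -1.50 to 0.20 and from -2.03 to -1.18. The classes held 12, 33, 30 and 6 members in PV CFC. How much of the members' values comes with length was not tested.

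**Figure D5:**
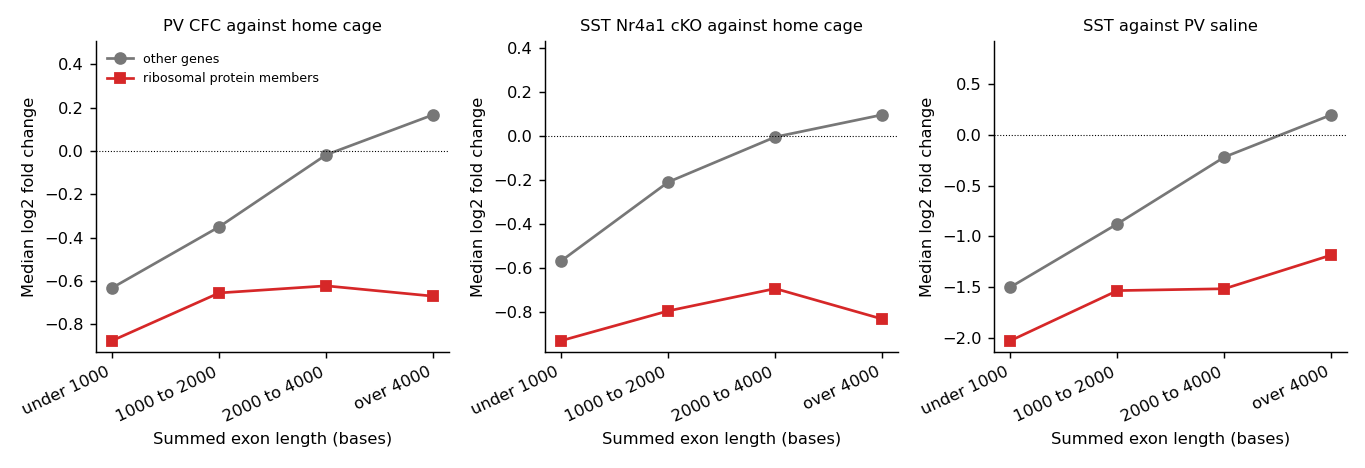
Median log2 fold change (y axis) of the members (red squares) and of all other tested genes (grey circles) in 4 classes of summed exon length (x axis, bases) for 3 comparisons. Other genes rise from -0.63 to 0.17, from -0.57 to 0.10 and from -1.50 to 0.20 with length, while the members stay at or below -0.62 in every class shown.

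The tag carrier and its paralog are described together. Rpl22 (chr4:152325742-152334071, plus strand) and Rpl22l1 (chr3:28805436-28807424, plus strand) are paralogs that encode large subunit proteins. Only Rpl22 bears the epitope, and the counts do not tell its tagged from its untagged transcripts. Rpl22 made up 0.419% to 0.780% of member counts over all groups but for 1 SST CFC library at 0.357%. Its log2 fold changes were -0.38 ± 0.20 for PV CFC, -0.32 ± 0.20 for PV Nr4a1 cKO, -0.16 ± 0.24 for SST CFC and -0.68 ± 0.22 for SST Nr4a1 cKO, all with an adjusted p of at least 0.0899. After PTZ it had -0.11 ± 0.25 in PV and -0.08 ± 0.21 in SST libraries, with overlap in both. Between SST and PV saline it fell, at 14.6, 11.9, 12.9 and 12.2 CPM against 38.0 and 22.9 CPM (-1.24 ± 0.23, adjusted p = 0.000746).

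Rpl22l1 was at 66.4, 65.9 and 62.8 CPM after CFC and at 83.0, 77 and 147 CPM in PV home cage libraries (-0.65 ± 0.23, adjusted p = 0.189), without overlap. Its groups overlapped in SST CFC (0.12 ± 0.12), PV PTZ (-0.08 ± 0.39) and SST PTZ (-0.21 ± 0.34) libraries. For SST against PV saline it was at 5.62, 3.04, 1.92 and 3.57 against 8.77 and 7.48 CPM (-1.20 ± 0.38, adjusted p = 0.0202). That call was lost without SST saline replicate 2 (adjusted p = 0.0519), without PV saline replicate 1 (0.0588) and when only the compared groups entered the fit (0.0506). Levels per kilobase used the transcript with the longest coding sequence, the shortest one in a tie (552 bases for Rpl22l1 and 474 for Rpl22). The summed exons of these genes are longer, at 1989 and 2911 bases. Rpl22l1 was at 128 ± 13.4 and Rpl22 at 89.0 ± 18.9 CPM per kilobase in SST home cage libraries. In PV home cage libraries they were at 186 ± 70.5 and 129 ± 40.5. Both genes were read in the same libraries, so these SDs do not measure the spread of the distance between them. In batches 1 and 2 the order was the opposite, given as CPM without TMM scaling. Rpl22l1 was at 2.70 to 9.755 and Rpl22 at 18.5 to 35.1 CPM in batch 1. In batch 2 they were at 1.89 to 9.41 and 9.61 to 40.7 CPM, so which of them is higher depends on the batch.

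Other paralogs were rare or hard to place. Rpl3l, a muscle form of Rpl3, was kept only in batch 3, where it was at 1.21 ± 0.35 CPM after CFC and 1.53 ± 1.23 in the PV home cage, while Rpl3 was at 216 ± 12.6 and 272 ± 49.7 CPM. Rpl10l and Rpl39l were under the CPM limit in every table that listed them. Rps27l, a paralog of Rps27, was at 0.403 to 1.41 CPM in batch 1 and at 15.6 to 50.1 CPM in batch 3, both without TMM scaling. In SST Nr4a1 cKO it had -0.42 ± 0.19 (adjusted p = 0.22), while Rps27 fell by 1.16 ± 0.18 (adjusted p = 0.00452).

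Levels also differ between the tables, for more members than those named here, whose CPM ranges are given without TMM scaling. Rpl24, of the large subunit (chr16:55966275-55971435, plus strand), was at 15.8 to 83.3 CPM in batches 1 and 2 and at most 0.693 CPM in batches 3 to 5, where it was not kept; its exons overlap the gene model Gm28037 on the same strand. Rps4l, which has no coding transcript in GENCODE M21, was at 1.91 to 16.8 CPM in batches 1 and 2 and at 61.1 to 110 CPM in batches 3 to 5. Rpl22l1 was at 1.89 to 9.755 CPM in batches 1 and 2 and at 38.5 to 134 CPM in batches 3 to 5. Counts of large over small subunit members were 1.75 to 2.52 per library in batches 1 and 2 and 1.35 to 1.59 in batches 3 to 5. The cause of these shifts was not tested. In all, 27 of the 82 members overlap another gene on the same strand, and the tables of batches 3 to 5 list 288 ribosomal pseudogene rows each, where those of batches 1 and 2 list 7 and 4. Reads of members with near-identical copies may be split between rows, so their levels are uncertain, and no level was tested between tables.

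Among ribosomal proteins that the naming rule leaves out, Fau, Rack1 and Rpl36al had negative values in PV CFC libraries, and none of these passed the test. Rpl36al had -0.90 ± 0.28, Fau, which is made fused to a ubiquitin-like protein, had -0.74 ± 0.24, and Rack1, a scaffold on the small subunit, had -0.41 ± 0.17. In SST Nr4a1 cKO Fau fell, at 56.4 ± 2.33 against 105 ± 9.88 CPM (-0.90 ± 0.10, adjusted p = 0.000728), while Rack1 (-0.22 ± 0.09) and Rpl36al (-0.49 ± 0.19) were not called. Against PV saline, Fau fell by 2.59 and Rpl36al by 1.83 on the log2 scale in SST saline libraries.

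Translation factors whose mRNAs also carry TOP tracts, a list of 21 genes, had values nearer to 0. None was called in PV CFC libraries (median -0.08, with 8 positive); Eif3k, a subunit of an initiation factor, had -0.52 ± 0.16 (adjusted p = 0.186). In SST Nr4a1 cKO 9 of 21 were lower, where 4.59% of all genes were, and none higher (median -0.34), among them the elongation factor Eef1a1 (-0.70 ± 0.08, adjusted p = 0.00118) and Eif3k (-0.66, adjusted p = 0.0192). In SST against PV saline 14 of 21 were lower, where 27.1% of all genes were, and none higher, where 26.0% were (median -0.71), with Eef1b2, which recharges Eef1a1 with GTP, at -2.21 and Tpt1 at -1.38.

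Genes that make ribosomes did not move as one. Of 49 tested ribosome biogenesis factors 0 were called in PV CFC libraries (median 0.07), and in SST Nr4a1 cKO 3 were higher and 4 lower (median -0.02), near the background of 3.51% and 4.59% of all genes. Pes1, a factor of large subunit assembly, fell in SST Nr4a1 cKO (-1.38, adjusted p = 0.00662), and Gnl3, the nucleolar protein nucleostemin, rose (0.70, adjusted p = 0.0336). In SST against PV saline 18 of 48 were lower, among them Gar1 (-2.48) and Mrto4 (-2.21), and 4 higher (median -0.39), beside 27.1% and 26.0% of all genes.

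mTORC1 and its translation targets had medians of -0.07 in PV CFC (30 tested, 0 called) and 0.03 in SST Nr4a1 cKO. In the latter 1 was higher, the cap-binding protein Eif4e (0.65, adjusted p = 0.0157), and 3 were lower. Of all genes 3.51% were higher and 4.59% lower in that comparison. Lamtor4, of the complex that anchors mTORC1 at lysosomes, was among the 3 lower ones (-0.71, adjusted p = 0.0161). In SST against PV saline 10 of 29 were lower, among them Lamtor4 (-2.58) and Lamtor2 (-2.47), and 3 higher. Of all genes 27.1% were lower and 26.0% higher there, so the lower share of this list is near the background. Sesn2, an inhibitor of mTORC1, was the only gene of this list called in PV Nr4a1 cKO (1.42, adjusted p = 0.0139), beside 0.139% of all genes. A list of 12 genes of ribosome rescue and quality control also held called genes in SST Nr4a1 cKO. Edf1, which senses collided ribosomes, fell (-0.68, adjusted p = 0.00102), where 4.59% of all genes were lower. Abce1, which splits ribosomes for recycling, rose (0.33, adjusted p = 0.023), where 3.51% were higher. None of the 12 was called in PV CFC.

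After PTZ none of the 4 lists from the TOP translation factors to ribosome rescue had a called gene in either cell type. Of the biogenesis list, Utp3 had 0.46 ± 0.13 in SST libraries (adjusted p = 0.963) and Heatr1 0.85 ± 0.22 in PV libraries (adjusted p = 0.267). Medians lay between -0.18 and 0.08, and for the TOP translation factors they were -0.18 in PV and -0.15 in SST libraries.

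Mitochondrial proteins encoded in the nucleus were a further list. In PV CFC libraries 74 oxidative phosphorylation subunits had a median of -0.68 (0 called, 4 positive) and 77 mitochondrial ribosomal proteins a median of -0.43 (0 called). In SST Nr4a1 cKO 45 of the 74 subunits were lower and none higher (median -0.50), among them Atp5e (-1.38, adjusted p = 0.00122), and 26 of the 77 mitochondrial ribosomal proteins were lower (median -0.28), where 4.59% of all genes were lower. In SST against PV saline 72 of 74 subunits were lower and 1 higher (median -2.22), and 58 of 77 mitochondrial ribosomal proteins were lower and 1 higher (median -1.36), where 27.1% of all genes were lower and 26.0% higher. In SST CFC libraries the 2 medians were 0.11 and 0.05, with 71 and 53 positive genes and 0 called. After PTZ they were -0.38 and -0.31 in PV and -0.24 and -0.23 in SST libraries, again with 0 called.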

How the data were processed

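RNA from HA-tagged ribosomes of PV or SST interneurons was measured in 34 libraries. The authors deposited estimated counts per gene for batch 1 (11.3% of values were not whole; they were rounded) and whole-number counts for batches 2 to 5. Per the submitters' processing notes, cutadapt 1.18, STAR 2.5.2a, HTSeq 0.11.0 and DESeq2 were used with the builds mm10 and GRCm39, with no role or batch given; whether counting used strand is not given there. Totals ran from 4933110 to 27282912 counts per library, and 0 sample columns were left unused. Of 37 replicate pairs 0 were identical (smallest chi-square per degree of freedom 5.89).

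Groups came from the labels. Each comparison was fitted over all genes of its table with edgeR 4.0.16 (filterByExpr, TMM scaling, quasi-likelihood F test, Benjamini-Hochberg adjustment, threshold 0.05) in R 4.3.3; all adjusted p-values in the report are from edgeR unless another tool is named. Standard errors are the log2 fold change divided by the root of F. DESeq2 1.42.0, limma 3.58.1 (voom), other scalings, no filter, a replicate block and leaving out each library were alternatives. The edgeR step was also tested on simulated data. CPM values are TMM-scaled unless said otherwise. Loci and lengths are from GENCODE M21 (GRCm38) and start sequences from RefSeq (GRCm38.p6).

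Named members were Rpl22, Rpl22l1, Rplp0, Rps6, Rpsa, the paralogs with their main copies, the 5 highest and 5 lowest with a mean of at least 10 CPM in each comparison, and up to 5 called members per direction. That mean was taken over all libraries of a fit, so a member could pass the limit through a single group. From each other list up to 2 called genes were named, or the 1 with the smallest p where none passed; Nr4a1 and Fos checked the labels. Others named were chosen after their values were seen. The members and lists were chosen with earlier results of these data known. Same-numbered replicates did not deviate together in all pairs of any comparison, and the main fits did not pair libraries. Each comparison has few such pairs, so this cannot exclude that the numbers pair the libraries. Some named genes are not reported here.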

Additional observations from a re-analysis of the deposited data

How the results depend on the processing

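No alternative reversed the direction of a called value among the single members that were recomputed, or of a median in a comparison with called members. DESeq2 called 1 member in SST PTZ, 49 in PV CFC, 6 in PV Nr4a1 cKO and 34 in the difference of CFC responses, where edgeR called 0 in each. With no filter on low counts edgeR called 59, 35 and 55 members in the last 3 of these. With the replicate block 7 members were called in SST Nr4a1 cKO instead of 69. The groups there come from different batches, and whether replicate numbers pair these libraries is not settled. The uncalled median of PV PTZ (0.0441) was -0.0474 with limma voom and -0.134 with the replicate block. The cause of these differences was not tested. For the no-filter and replicate-block fits the share of all genes called is not given here. Their member counts therefore cannot be read as particular to the members.

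Leaving out 1 library at a time, members called ran from 0 to 66 in PV CFC, 0 to 43 in PV Nr4a1 cKO, 53 to 70 in SST Nr4a1 cKO, 69 to 75 in SST against PV saline and 0 to 66 in the difference of CFC responses. The highest counts of PV CFC, PV Nr4a1 cKO and that difference came without PV home cage replicate 1. Shares of all genes called in these refits are not given here, so the counts have no background beside them. Medians ran from -0.334 to -0.151 in SST PTZ, 0.0807 to 0.203 in SST CFC, -0.579 to -0.18 in the difference of PTZ responses, -0.89 to -0.362 in PV CFC, -0.755 to -0.215 in PV Nr4a1 cKO, -1.82 to -1.29 in SST against PV saline and 0.582 to 1.12 in the difference of CFC responses. Rpl22 in SST Nr4a1 cKO was called by DESeq2 (adjusted p = 0.0253) and without SST home cage replicate 3 (0.0451, edgeR).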
